A study of Danio rerio with 8 samples.

Results

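The erythroid genes examined here are 10 genes of the red blood cell lineage, taken as a measure of the blood carried in dissected zebrafish heads: the embryonic globins *hbae1.1*, *hbae3*, *hbbe1.1* and *hbbe2*, the haem enzyme gene *alas2*, the carbonic anhydrase gene *cahz*, the membrane transporter gene *slc4a1a* and the nuclear regulators *hemgn*, *klf1* and *gata1a*. They were chosen by name as erythroid markers, with earlier results of these data known. Of the 10, 9 had a row in the count table of 32520 rows; *hbae1.1* had none under its symbol and was not analysed here. 8 of the 9 reached at least 10 counts in at least 3 libraries and were tested, among 19412 such genes, and *gata1a* was too low.

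RNA came from heads of zebrafish larvae of the AB strain at 7 days post-fertilization (dpf), pooled from 11 to 17 heads dissected per genotype, as 4 wild-type (WT) and 4 *mtmr5* knockout (*mtmr5*-KO) libraries. *mtmr5*-KO larvae carried a deletion of the whole gene on both alleles, made with CRISPR/Cas9, in a single line, and WT larvae were siblings without it. Larvae of both genotypes had been fin clipped for genotyping at earlier stages, and the biological replicates came from different breeding pairs over time. PolyA RNA was sequenced, so levels of mature messenger RNA were measured across brain, eyes, skin, muscle, cartilage and the blood of the head vessels together.

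Red cells of fish keep their nucleus and carry messenger RNA while they circulate. Hemoglobin is assembled from alpha-type and beta-type globin chains around haem, and the larva still uses embryonic chains that are later replaced by adult ones. The transcription factors Gata1a and Klf1 switch on globin, haem and membrane genes in the precursors, whose main sites at this age, the tissue of the tail and the kidney, lie behind the head.

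WT libraries held 20514932 to 22761120 counts in all and *mtmr5*-KO libraries 16104181 to 19170140. The targeted gene, listed as *sbf1*, had 1894 to 2545 counts in each WT library and 26 to 63 in each *mtmr5*-KO library, which matched every label. The 20 most abundant rows took 20.8% to 27.5% of the counts of WT libraries and 48.9% to 65.6% of those of *mtmr5*-KO libraries, and mitochondrially encoded genes took 6.43% to 8.82% and 18.6% to 26.6%. The choice of scale therefore moves every gene. Levels are given below as counts scaled to a common effective total of 1e+06 (CPM), set by the trimmed mean of M-values (TMM), which sets each library against the bulk of its genes, and the same members on library totals follow. With TMM the median log2 fold change of *mtmr5*-KO over WT over all tested genes was -0.02, and with library totals it was -0.98. *mtmr5*-KO replicates 3 and 4 stood furthest out, with the 2 highest shares of the 20 rows.

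Few reads came from these genes in either genotype. The 9 genes together held 2170 to 2812 counts in WT libraries, against 987 to 1476 in *mtmr5*-KO libraries. No member was called at an adjusted p under 0.05 in edgeR's quasi-likelihood test with genotype as the only term and Benjamini-Hochberg adjustment over all tested genes: 0 of 8 were higher and 0 of 8 lower, beside a background of 13.5% of all tested genes called higher and 7.51% called lower (21% in either direction). At an unadjusted p under 0.05, 3 of 8 were higher in *mtmr5*-KO heads: *cahz*, *hemgn* and *klf1* (background 19.1%). At that threshold 0 of 8 were lower, beside 2846 of the 19412 tested genes. DESeq2 called the same 3 genes higher (background 15.7%), while limma-voom and limma on the normalized counts called 0. With the replicate number as a block, edgeR called *cahz* and *hemgn* higher (edgeR adjusted p = 0.0137 and 0.0117, background 14.8%). The labels do not say whether same-numbered libraries share a breeding pair. With each genotype's mean subtracted, 8 of 8 libraries correlated best, among libraries of the other genotype, with that of their own number. The count of members called thus depends on the tool and the scaling, and on whether the numbers mark a pairing. At an adjusted p under 0.01 with an absolute log2 fold change over 1, 0 members were called, beside 7.13% higher and 1.08% lower over all genes. In bulk RNA of whole heads, the number of red cells and the RNA per red cell cannot be told apart.

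**Figure D1:**
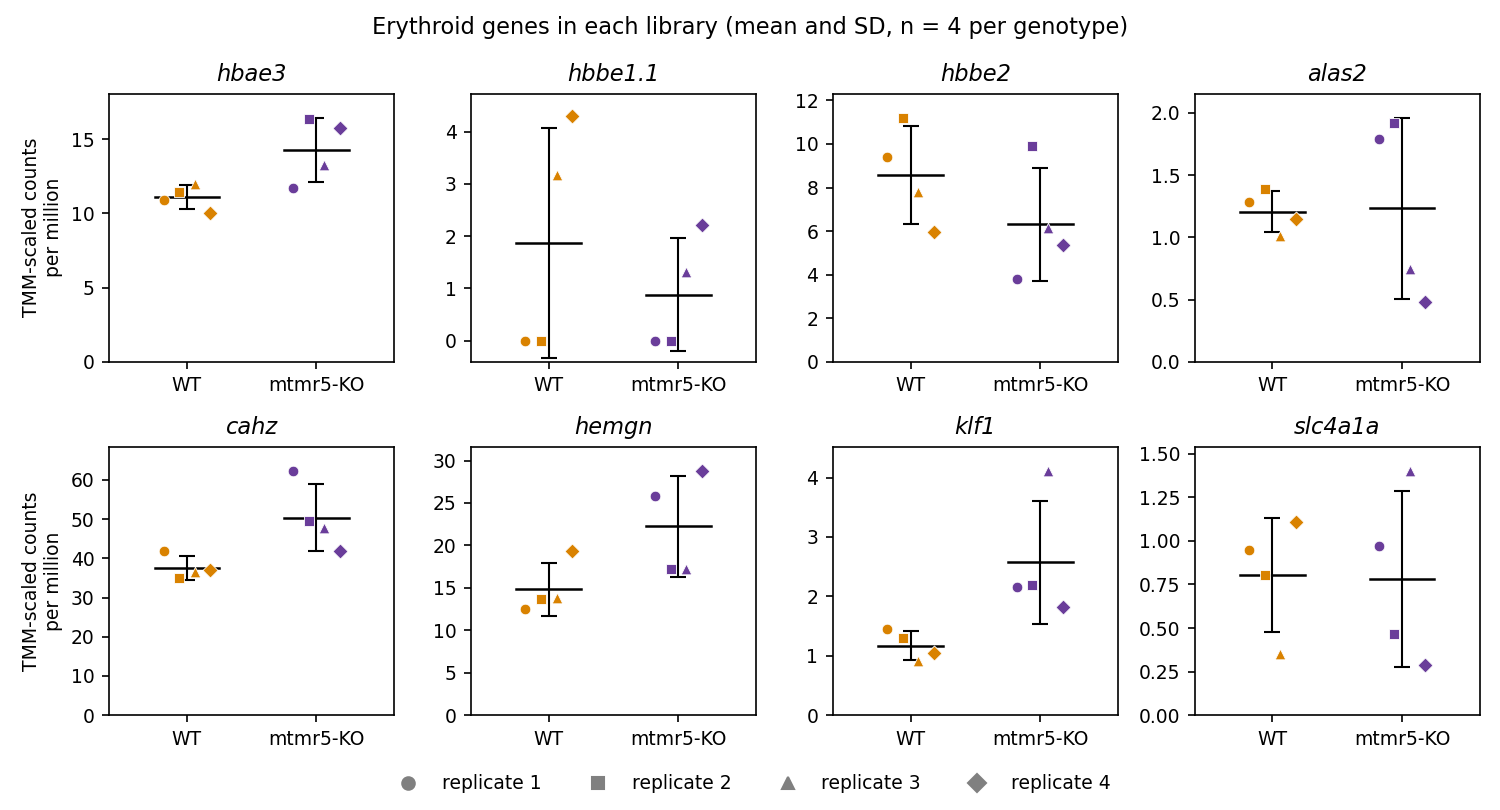
TMM-scaled CPM (y axes, linear, each panel with its own range) of the 8 tested erythroid genes in each library, by genotype (x axes); markers give the replicate number, horizontal lines the mean and error bars the SD of 4 libraries. *klf1* and *cahz* are higher in all *mtmr5*-KO than in all WT libraries on this scale, *cahz* by a gap under the rounding of the values and with a negative fold change on library totals, and *hbbe1.1* has reads only in replicates 3 and 4 of both genotypes.

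Of the globins, *hbae3*, an alpha-type embryonic chain, had the steadiest values. WT replicates 1 to 4 held 10.9, 11.4, 11.97 and 10.04 CPM, and *mtmr5*-KO replicates 1 to 4 held 11.7, 16.3, 13.3 and 15.8 CPM. Of the *mtmr5*-KO libraries, 3 lay above every WT library and replicate 1 lay inside the WT range. The log2 fold change was 0.36 (SE 0.17, 95% interval -0.0059 to 0.73, edgeR adjusted p = 0.154), which did not pass the test.

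*hbbe2*, a beta-type embryonic chain, had its values on the other side. WT replicates 1 to 4 held 9.43, 11.2, 7.78 and 5.95 CPM, against 3.80, 9.92, 6.16 and 5.38 CPM in *mtmr5*-KO replicates 1 to 4. The genotypes overlapped, since *mtmr5*-KO replicate 2 exceeded 3 of the 4 WT libraries, and *mtmr5*-KO replicates 1 and 4 were below all of them. The log2 fold change was -0.44 (SE 0.29, 95% interval -1.05 to 0.17, edgeR adjusted p = 0.307). Without *mtmr5*-KO replicate 2 it was -0.77 (edgeR adjusted p = 0.0683).

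The balance between these globins was read directly from their counts, a ratio within each library that no scaling touches. *hbbe2* had 0.862, 0.980, 0.650 and 0.593 counts per *hbae3* count in WT replicates 1 to 4, and 0.325, 0.607, 0.465 and 0.341 in *mtmr5*-KO replicates 1 to 4. The mean was 0.771 ± 0.181 (SD, n = 4) in WT heads, against 0.435 ± 0.131 (SD, n = 4) for *mtmr5*-KO, and only *mtmr5*-KO replicate 2 reached the WT range. The mean log2 ratio differed by -0.84, with p = 0.0571 in a two-sided exact permutation test over the 70 splits, whose smallest possible p was 0.0286. This ratio was chosen after the data were seen. In the RefSeq table of the assembly GRCz12tu, *hbae3* lies in 1 globin cluster with *hbae1.1*, *hbbe1.1*, *hbbe1.2*, *hbbe1.3* and the adult globins, and *hbbe2* lies on another chromosome beside *hbae4*, *hbae5* and *hbbe3*.

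*hbbe1.1*, a second beta-type embryonic gene, was split by replicate number rather than by genotype. It had 0 counts in replicates 1 and 2 of both genotypes, 91 and 120 counts in WT replicates 3 and 4, and 14 and 23 counts in *mtmr5*-KO replicates 3 and 4. In CPM the 4 libraries with reads held 3.18 and 4.30 in WT and 1.31 and 2.21 in *mtmr5*-KO heads. A count of 0 allows up to 3 counts, which is 0.0837 and 0.0968 CPM in the WT libraries with none and 0.224 and 0.198 CPM in the *mtmr5*-KO libraries, a limit for counting error only. All 4 libraries with reads were thus far above that limit, and the WT pair was above the *mtmr5*-KO pair. Over all 8 libraries the log2 fold change was -1.15 (SE 1.88, edgeR adjusted p = 0.719), an interval too wide to place the gene, and limma-voom gave 0.040 (edgeR, DESeq2 and limma adjusted p from 0.256 to 0.991 over the alternatives).

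No other gene of the table behaved so: *hbbe1.1* was the 1 gene with at least 10 counts in all 4 libraries numbered 3 and 4 and 0 counts in all 4 numbered 1 and 2, and the other 5 ways of choosing 2 numbers gave 0 genes. Its neighbours *hbbe1.2* and *hbbe1.3*, near copies of the same chain, carried reads in every library. *hbbe1.2* had 41, 30, 18 and 9 counts in WT replicates 1 to 4 and 2, 19, 1 and 1 in *mtmr5*-KO replicates 1 to 4. *hbbe1.3* had 197, 135, 146 and 66 counts in WT and 62, 81, 48 and 31 in *mtmr5*-KO replicates 1 to 4. Both were therefore lowest, within WT, in replicate 4, where *hbbe1.1* was highest and made up 61.5% of the reads of the 3 copies. Only uniquely mapping reads were counted, so reads can be lost or moved between near-identical copies, and the single copies are uncertain.

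**Figure D2:**
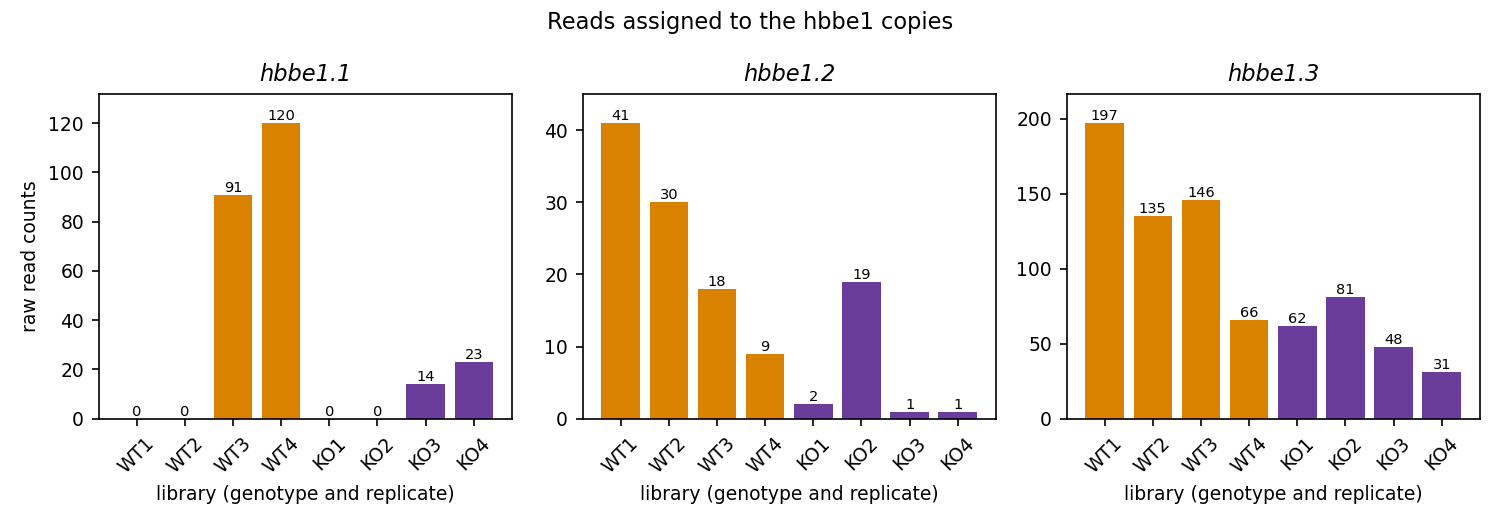
Raw read counts (y axes, linear from 0) assigned to *hbbe1.1*, *hbbe1.2* and *hbbe1.3* in each library (x axes, WT1 to WT4 in orange and KO1 to KO4 in purple), with the count printed over each bar. *hbbe1.1* has 0 counts in WT1, WT2, KO1 and KO2, while *hbbe1.3* has 31 to 197 counts in every library.

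The sum over the 3 copies does not depend on how the counted reads are shared out among them. Reads that did not map uniquely are missing from it, as from every globin count here. Its counts were 238, 165, 255 and 195 in WT and 64, 100, 63 and 55 in *mtmr5*-KO replicates 1 to 4. On the TMM scale this was 6.96 ± 1.48 CPM (SD, n = 4) for WT, against 5.64 ± 0.793 CPM (SD, n = 4) for *mtmr5*-KO, and the genotypes overlapped. The zeros of *hbbe1.1* in replicates 1 and 2 were absent from the sum. In CPM the sum was 6.64, 5.32, 8.90 and 6.99 in WT replicates 1 to 4, so replicates 3 and 4 were still above 1 and 2. It was 4.77, 6.61, 5.88 and 5.29 in *mtmr5*-KO replicates 1 to 4, without that order. The table held 15 globin rows, of which 4 were 0 in every library (*hbbe3* and the adult genes *hbba2*, *hbba1* and *hbaa1*), 11 had reads and 6 were tested. All globin rows together took 24.8 to 30.3 CPM of each WT library, against 24.1 to 34.9 CPM of each *mtmr5*-KO library, so that the genotypes overlapped with TMM. As a share of all counts they took 0.00317% to 0.00460% of WT libraries and 0.00150% to 0.00308% of *mtmr5*-KO libraries. This was lower in *mtmr5*-KO without overlap, as were 51.6% of all tested genes taken singly. The log2 ratio was -0.91, beside a median of -0.98 for all tested genes on that scale. The other globins outside the member list gave 0 of 3 tested genes called in either direction. The count was also 0 of 3 at an unadjusted p under 0.05 in edgeR (background 33.8%), and 0 in DESeq2 and limma. *hbbe1.3* was at a log2 fold change of 0.02 (edgeR adjusted p = 0.979) and the second row of *hbae1.3* at 0.84 (edgeR adjusted p = 0.284). *hbbe1.2* was at -0.86 (edgeR adjusted p = 0.498). Without *mtmr5*-KO replicate 2, edgeR called 1 of the 3 lower, beside 1672 genes in all. With library totals 1 was called lower (background 55.7%).

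The gene of the first step of haem synthesis in red cells, *alas2*, differed more within the *mtmr5*-KO libraries than between genotypes. WT replicates 1 to 4 held 1.28, 1.39, 1.01 and 1.15 CPM from 29 to 46 counts, and *mtmr5*-KO replicates 1 to 4 held 1.79, 1.92, 0.747 and 0.481 CPM from 5 to 29 counts. *mtmr5*-KO replicates 1 and 2 were above every WT library and replicates 3 and 4 below every one. The log2 fold change was 0.06 (SE 0.49, 95% interval -0.98 to 1.09, edgeR adjusted p = 0.952), and it was -0.27 without *mtmr5*-KO replicate 2 and 0.28 without *mtmr5*-KO replicate 4.

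*slc4a1a* encodes the anion exchanger of the red cell membrane, band 3. Its WT replicates 1 to 4 held 0.948, 0.807, 0.349 and 1.11 CPM and its *mtmr5*-KO replicates 0.969, 0.463, 1.40 and 0.288 CPM, from 3 to 34 counts a library. The highest and the lowest library were both *mtmr5*-KO, and the log2 fold change was -0.05 (SE 0.62, 95% interval -1.37 to 1.28, edgeR adjusted p = 0.967). That interval was wide and held changes in either direction, so the values did not place the gene.

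*cahz*, the carbonic anhydrase of zebrafish red cells, carried the most reads of the list, 43.4% to 57.4% of the members' counts per library. It is also known from the Müller glia of the fish retina, and eyes were part of the heads. WT replicates 1 to 4 held 41.9, 34.9, 36.6 and 37.0 CPM and *mtmr5*-KO replicates 62.3, 49.5, 47.8 and 41.9 CPM. Every *mtmr5*-KO library was above every WT library, but *mtmr5*-KO replicate 4 and WT replicate 1 are equal to 3 digits. The log2 fold change was 0.42 (SE 0.15, 95% interval 0.11 to 0.74, unadjusted p = 0.0123, edgeR adjusted p = 0.0561). DESeq2 gave an adjusted p of 0.0339 and upper quartile scaling in edgeR 0.0312, and over 19 alternatives the adjusted p ran from 0.0137 to 0.155 (edgeR, DESeq2 and limma), with 5 of them under 0.05.

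*hemgn* encodes hemogen, a nuclear protein of blood precursors. WT replicates 1 to 4 held 12.5, 13.7, 13.8 and 19.4 CPM and *mtmr5*-KO replicates 25.8, 17.2, 17.2 and 28.7 CPM. WT replicate 4 lay above *mtmr5*-KO replicates 2 and 3, so the genotypes overlapped, although each *mtmr5*-KO library was above the other 3 WT libraries. The log2 fold change was 0.58 (SE 0.20, 95% interval 0.15 to 1.02, unadjusted p = 0.0116, edgeR adjusted p = 0.0538). Leaving out 1 library brought it under 0.05 in 3 of 8 cases, WT replicate 4 (0.74, edgeR adjusted p = 0.0273) and *mtmr5*-KO replicates 2 (0.67) and 3 (0.67). The other 5 gave 0.41 to 0.55, with an edgeR adjusted p of up to 0.177 without *mtmr5*-KO replicate 4. Over all 19 alternatives the adjusted p ran from 0.0117 to 0.222 (edgeR, DESeq2 and limma), with 6 under 0.05.

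*klf1*, the erythroid Krüppel-like factor that drives beta-type globin transcription in mammals, had the largest positive fold change of the list. WT replicates 1 to 4 held 1.45, 1.29, 0.907 and 1.04 CPM, from 26 to 52 counts, and *mtmr5*-KO replicates held 2.16, 2.18, 4.11 and 1.83 CPM, from 19 to 44 counts. All 4 *mtmr5*-KO libraries were above all WT libraries, with replicate 3 far above the other 3. The log2 fold change was 1.12 (SE 0.39, 95% interval 0.29 to 1.96, unadjusted p = 0.0117, edgeR adjusted p = 0.0540), and without *mtmr5*-KO replicate 3 it was 0.78. Over the 19 alternatives its adjusted p ran from 0.0198 in DESeq2 to 0.850 with library totals in edgeR, with 2 under 0.05.

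*gata1a*, the regulator at the head of the erythroid program, had 0, 0, 3 and 0 counts in WT replicates 1 to 4 and 0, 2, 2 and 0 counts in *mtmr5*-KO replicates. Both genotypes were at or under the floor of 3 counts, and no fold change was computed. Of the other genes of precursors, some were as low and some were not. Among the low ones, *gfi1b*, a repressor of the erythroid and thrombocyte lineages, had 2 counts in all WT and 0 in all *mtmr5*-KO libraries together, *epor*, the erythropoietin receptor, had 7 and 0, and *slc25a37*, the mitochondrial iron importer mitoferrin, had 1 and 0. Like *gata1a*, none of these 3 exceeded 4 counts in any library. By contrast, *tal1* had 4668 counts in all WT and 1150 in all *mtmr5*-KO libraries together, *gata2a* 3109 and 1018, *lmo2* 730 and 258, and *myb* 641 and 195. These raw counts are not scaled, and *mtmr5*-KO libraries held fewer counts in all. With TMM the log2 fold change was -0.75 for *tal1* (edgeR adjusted p = 0.0200) and -0.31 for *gata2a* (edgeR adjusted p = 0.225). It was -0.19 for *lmo2* (edgeR adjusted p = 0.615) and -0.40 for *myb* (edgeR adjusted p = 0.542). Of the other genes of precursors named here, all but *tal1* were singled out after their values were seen.

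Over the list, 2 of 8 members, *cahz* and *klf1*, were higher in every *mtmr5*-KO than in every WT library with TMM, beside 13.9% of all tested genes, and 0 of 8 were lower in every library, beside 11%. The median log2 fold change of the 8 was 0.21, beside -0.02 over all tested genes. 5 members had positive and 3 negative values.

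On library totals 4 of the 8 members turned from positive to negative: *hbae3*, *alas2*, *cahz* and *hemgn*. With no factors, 7 of 8 log2 fold changes were negative and only *klf1* was positive, at 0.10 (edgeR adjusted p = 0.850). *hbbe2* was then called lower, at -1.38 (SE 0.35, edgeR adjusted p = 0.00248), 1 of 8 members beside a background of 55.7% of all tested genes called lower on that scale. *hbae3* stood at -0.59 (edgeR adjusted p = 0.0514), *cahz* at -0.53 (edgeR adjusted p = 0.0661) and *hemgn* at -0.36 (edgeR adjusted p = 0.222), each positive with TMM. No member was lower in every *mtmr5*-KO than in every WT library (0 of 8, beside 51.6%). Changing the scale shifts the log2 fold changes of all genes by nearly the same amount. Distances from the median of all tested genes are therefore nearly fixed in advance, and the 2 scales are not separate support. *cahz* was 0.44 above that median with TMM and 0.45 above it with library totals, *hemgn* 0.60 and 0.61, *hbae3* 0.38 and 0.38, and *hbbe2* was at -0.42 and -0.40. For the same reason 5 of 8 members were above the median of all genes on both scales.

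**Figure D3:**
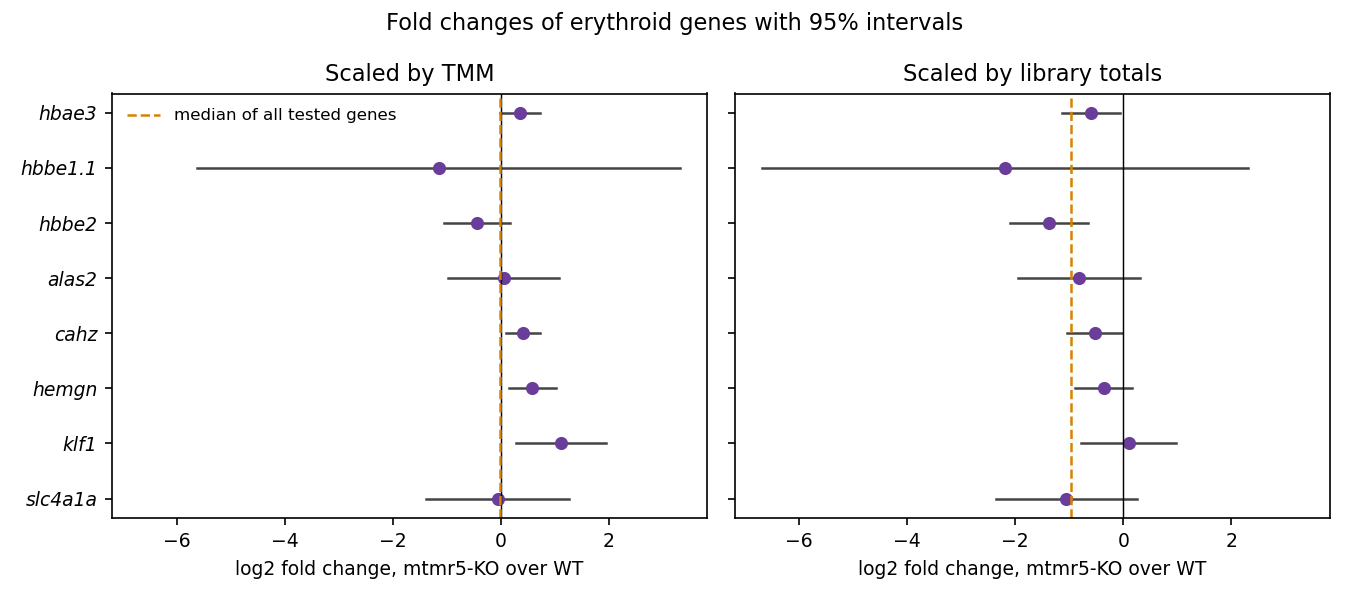
Log2 fold changes of *mtmr5*-KO over WT (x axes) of the 8 tested erythroid genes with 95% intervals, with TMM (left) and with library totals (right); the dashed line is the median of all tested genes and the solid line is 0. *cahz*, *hemgn* and *hbae3* lie above 0 with TMM and below 0 with library totals, while the median of all tested genes moves from -0.02 to -0.98.

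The summed level shows the same reversal. With TMM, the 9 genes summed to 78.4, 74.7, 75.7 and 80.0 CPM in WT and to 108, 97.6, 92.1 and 96.6 CPM in *mtmr5*-KO replicates 1 to 4, or 77.2 ± 2.43 against 98.7 ± 6.93 CPM (SD, n = 4), a log2 ratio of 0.35. As a share of all counts they took 0.0125%, 0.0102%, 0.0106% and 0.0102% in WT and 0.00878%, 0.00860%, 0.00515% and 0.00624% in *mtmr5*-KO replicates 1 to 4. This was a log2 ratio of -0.60, beside a median of -0.98 for all tested genes on that scale. The genotypes did not overlap on either scale, with *mtmr5*-KO above WT on the first and below on the second. Of all tested genes, taken singly, 13.9% lay above without overlap on the first scale and 51.6% below on the second. Wilson binomial 95% intervals of these shares, which cover counting error only, ran from 0.00976% to 0.0130% over the WT libraries and from 0.00484% to 0.00924% over the *mtmr5*-KO libraries. As a share of the counts outside the 20 most abundant rows, the members took 0.0144% ± 0.00137 in WT and 0.0167% ± 0.00162 in *mtmr5*-KO heads (SD, n = 4 each), a log2 ratio of 0.21. Without *cahz*, the sum with TMM was 39.6 ± 2.65 CPM in WT and 48.4 ± 4.51 CPM in *mtmr5*-KO heads (SD, n = 4 each), a log2 ratio of 0.29. Most of that remaining rise lay in *hemgn*, at a mean of 14.8 CPM in WT and 22.2 CPM in *mtmr5*-KO heads. All globin rows together, members or not, had a log2 ratio of 0.04 with TMM. The part of the 20 most abundant rows in these sums cannot be told apart from the genotype, since every *mtmr5*-KO library had a larger share of them than every WT library.

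**Figure D4:**
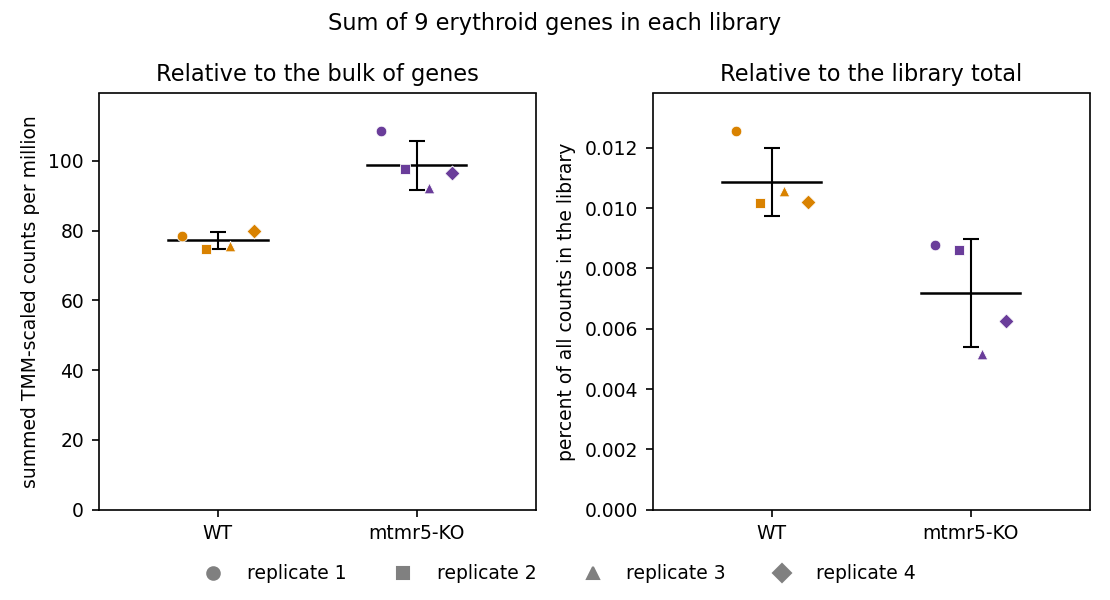
Sum of the 9 erythroid genes in each library as TMM-scaled CPM (left) and as percent of all counts (right), by genotype; markers give the replicate number, lines the mean and error bars the SD of 4 libraries. *mtmr5*-KO libraries lie above all WT libraries on the left, at 92.1 to 108 against 74.7 to 80.0, and below all WT libraries on the right, at 0.00515% to 0.00878% against 0.0102% to 0.0125%. On the scale of the right panel the median log2 fold change of all tested genes was -0.98.

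Within a genotype the erythroid genes did not vary together as a set from library to library. After each genotype's mean was subtracted, Pearson's r between members over the 8 libraries ran from -0.80 to 0.76 over the 28 pairs with a median of -0.21, Spearman's rho from -0.83 to 0.74 with a median of -0.13, and 10 pairs were above 0. These are descriptions over few libraries that share depth and scaling factors, and genes with few counts add counting noise. The lowest r was between *hbae3* and *slc4a1a*, and the highest between *klf1* and *slc4a1a*. The globins *hbae3* and *hbbe2* had r = 0.72 (rho = 0.62), and *alas2* and *cahz* r = 0.70 (rho = 0.67). The genes whose deviations were most like the members' mean were *usp9* (r = 0.98), *whrna* (r = 0.97), *gigyf1b* (r = 0.97), *ryr1b* (r = 0.97) and *gc* (r = 0.97), over 8 libraries. That mean followed *hbbe1.1* (r = 0.89), whose reads were confined to replicates 3 and 4, and correlated from -0.54 to 0.25 with the other members. When *hbbe1.1* was left out of the mean, a choice made after the data were seen, the same 5 genes had r from -0.41 to -0.16, and the 5 most alike became *fnip2*, *eri1*, *psmd7*, *rrn3* and *zpr1*.

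In 3 further lists of the red cell program, 5 of 43 tested rows (11.6%) were called higher and 2 (4.65%) lower, shares near the 13.5% and 7.51% of all tested genes. Which cells of the heads made the messages of the called genes was not tested. Of 18 tested genes of haem synthesis and iron handling, 1 was called higher and 0 lower, with a median log2 fold change of -0.21. At an unadjusted p under 0.05, 2 of the 18 were lower, beside 2846 of 19412 tested genes. DESeq2 and limma called 0 lower. The called gene was *tfr1a*, the transferrin receptor through which red cell precursors take up iron. It was at 0.537 ± 0.249 CPM in WT and 1.63 ± 0.383 CPM in *mtmr5*-KO heads (SD, n = 4), a log2 fold change of 1.58 (SE 0.53, edgeR adjusted p = 0.0459). Its adjusted p was over 0.05 without any 1 of the 4 WT libraries or without *mtmr5*-KO replicate 2, 3 or 4, reaching 0.106, and with library totals it was 0.377 (edgeR).

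Of 10 tested rows of erythrocyte membrane genes, 2 were called higher and 1 lower, with a median of 0.05. *epb41b*, a protein 4.1 gene of the membrane skeleton, rose from 2.47 ± 0.573 to 6.04 ± 1.64 CPM (SD, n = 4), a log2 fold change of 1.28 (edgeR adjusted p = 0.00538), which was 0.30 with library totals (edgeR adjusted p = 0.444). *ank1a*, an ankyrin that ties that skeleton to band 3, rose from 13.6 ± 2.39 to 23.2 ± 3.48 CPM (SD, n = 4), a log2 fold change of 0.77 with TMM (edgeR adjusted p = 0.00529) but -0.18 with library totals. In WT heads *slc4a1a*, the gene of band 3, was at a mean of 0.804 CPM, far below *ank1a*. A second row of *ank1a* lay on the other side, at -1.18 with TMM (edgeR adjusted p = 0.297). That row had only 73 counts in all WT and 13 in all *mtmr5*-KO libraries together. *aqp1a.1*, a water channel of red cells and of vessel walls, fell from 27.5 ± 2.43 to 15.6 ± 3.71 CPM (SD, n = 4), a log2 fold change of -0.81 (edgeR adjusted p = 0.00383).

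Of 15 tested erythroid regulators, 2 were called higher and 1 lower, with a median of -0.05. *ldb1b*, a cofactor that bridges Gata1-bound DNA sites, rose by a log2 fold change of 1.17 (edgeR adjusted p = 0.0109), which lost its call with library totals (0.16, edgeR adjusted p = 0.709) and without *mtmr5*-KO replicates 3 and 4 (1.01, edgeR adjusted p = 0.0652). *bach1b*, a haem-sensing repressor, stood at 1.02 with TMM (edgeR adjusted p = 0.0218) but at -0.013 with library totals. *tal1*, a factor of blood precursors that is also made in neurons, fell by 0.75 on the log2 scale (edgeR adjusted p = 0.0200). *bach1b* missed the threshold when WT replicate 2 or 4, or else *mtmr5*-KO replicate 3 or 4, was left out (edgeR adjusted p up to 0.0812), and *tal1* when WT replicate 3 or 4, or else *mtmr5*-KO replicate 3, was (edgeR adjusted p up to 0.0664).

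Markers of the other cells of blood and vessels were read beside the erythroid genes. Over all tested genes, edgeR with TMM called 13.5% higher and 7.51% lower. At an unadjusted p under 0.05 it had 19.1% higher and 2846 of the 19412 genes lower, and DESeq2 called 15.7% higher. Endothelial genes summed to 79.9 to 90.1 CPM per WT library and 79.2 to 84.6 CPM per *mtmr5*-KO library, with 1 of 16 called higher and 2 lower: *tek*, an angiopoietin receptor, at 0.62 with TMM (edgeR adjusted p = 0.0329) but -0.35 with library totals (called in 3 of 8 fits with a library left out, edgeR adjusted p up to 0.0998), and the scavenger receptor gene *stab2* at -1.07 (edgeR adjusted p = 0.00355) and the tight junction gene *cldn5b* at -1.19 (edgeR adjusted p = 0.00767). Of 7 tested thrombocyte genes, 0 were called in edgeR (3 higher at an unadjusted p under 0.05, 3 higher in DESeq2 and 1 higher in limma-voom), with a median of 0.92; *thbs1b* was at -0.20 (edgeR adjusted p = 0.429) and *fermt3b* at 0.92 with TMM and -0.032 with library totals (edgeR adjusted p = 0.0553 with TMM). Of 15 leukocyte genes, 1 was called higher, the lysozyme gene *lyz*, at 2.14 (edgeR adjusted p = 0.00561; 1.18 and 0.0546 with library totals), and 0 were called lower (0 also at an unadjusted p under 0.05, and in DESeq2 and limma). Of 14 genes of neurons and glia, 5 were called higher and 3 lower, among them the neuronal RNA-binding gene *elavl3* at 1.23 (edgeR adjusted p = 2.4e-04) and the myelin gene *mbpa* at 1.09 (edgeR adjusted p = 0.00221). With library totals these were 0.26 and 0.14 (edgeR adjusted p = 0.219 and 0.613). On that scale 0 of the 14 were called higher and 7 lower, beside 3.71% and 55.7% of all tested genes. *syt1a* and *gap43* were at 0.69 and 0.62 with TMM but at -0.30 and -0.33 with library totals, and *tubb5* and *sypa* were at -0.82 and -0.75. The last 4 missed the threshold without *mtmr5*-KO replicates 3 and 4 (edgeR adjusted p from 0.0527 to 0.0802). The neuronal and glial genes summed to 3831 to 4543 CPM per WT library and 5727 to 6547 CPM per *mtmr5*-KO library, higher with TMM without overlap, as was the sum of the erythroid genes. *elavl3* alone went from 924 to 1497 CPM in WT libraries to 2363 to 3306 CPM in *mtmr5*-KO libraries, and the other 13 genes summed to 2907 to 3202 and 3241 to 3449 CPM. Of the 14 genes, 5 were higher and 5 lower in every *mtmr5*-KO than in every WT library, beside 13.9% and 11% of all tested genes. The part of this in the levels of the erythroid genes was not tested.

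**Figure D5:**
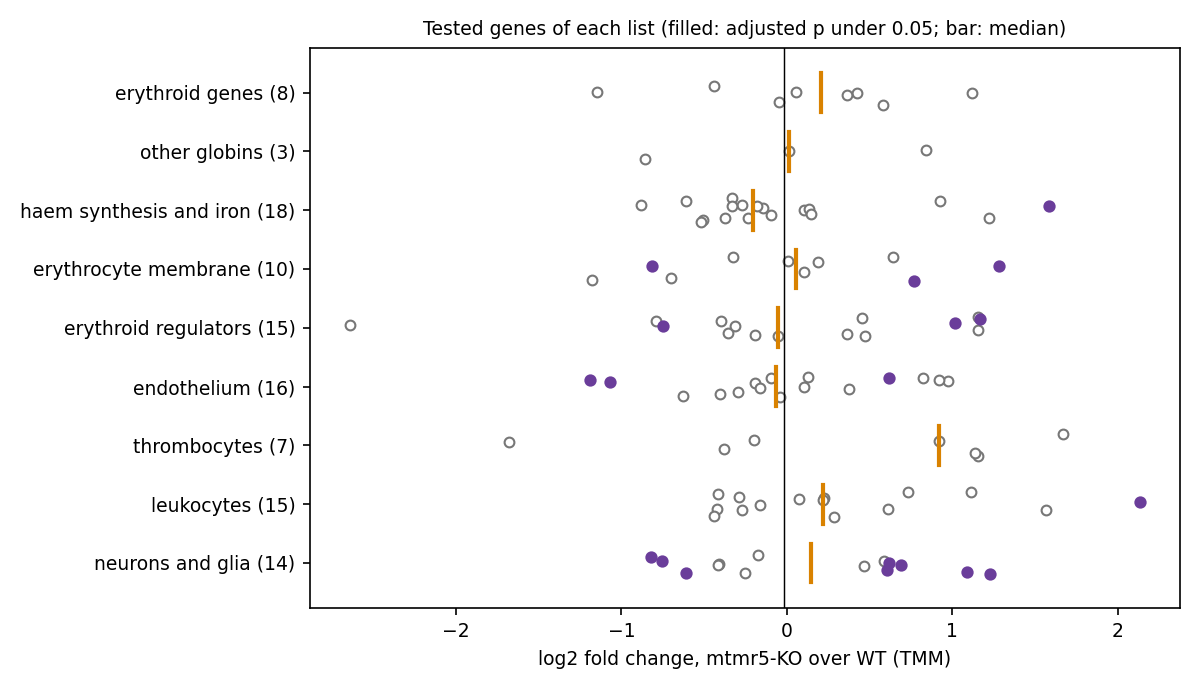
Log2 fold changes of *mtmr5*-KO over WT with TMM (x axis) of the tested genes of each list (rows, number tested in parentheses), each point a gene placed at a random height within its row; filled points have an adjusted p under 0.05 in edgeR, orange bars are medians and the black line is the median of all tested genes. The erythroid genes hold 0 filled points of 8 and a median of 0.21, which is -0.71 with library totals.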

How the data were processed

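RNA from pooled zebrafish heads at 7 dpf was sequenced as 8 libraries (4 WT, 4 *mtmr5*-KO). The authors used Trim Galore 0.6.7 for trimming, STAR 2.7.11a for alignment on GRCz11 and HTSeq 2.0.5 for counting uniquely mapping reads (the paper's methods and notes of the submitters on processing). Whether counting used strand is not stated there, and reads of antisense partners may be mixed. The deposited raw counts are whole numbers. The normalized table that was deposited is a signal, each library's raw counts over its own size factor, for the 19412 rows reaching 10 counts in 3 or more libraries. Both properties were checked (largest difference 0.00198 counts). 2901 repeated symbols kept separate rows.

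Groups and replicates came from the sample labels. Raw counts were tested with edgeR 4.0.16 in R 4.3.3 (glmQLFit with robust=TRUE, glmQLFTest, TMM, genotype as the only term, Benjamini-Hochberg over all tested genes). The SE is the log2 fold change over the square root of F. DESeq2 1.42.0, limma 3.58.1 (voom, and log2 of normalized counts plus 1), other scalings and filters, the replicate number as a block and libraries left out were alternatives. The fits were tested on simulated data. The members and lists were chosen with earlier results of these data known. By rule, the text named all members and the 5 genes most like the members' mean of log2 CPM (prior count 2). Of each other list it named the called genes up to 6 by smallest p, or otherwise the 2 with the highest level. Further genes were named outside this rule, such as *hbbe1.2*, several genes of precursors and the genes most like the mean without *hbbe1.1*. Depth sets the precision: counts per member ran from 0 to 1503 a library. RefSeq of GRCz12tu was used only for names and for which globin genes neighbour each other. Python 3.11.15 and matplotlib 3.10.9 drew the figures.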

Additional observations from a re-analysis of the deposited data

Results flagged for a closer look

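Of 80 groups of 4 libraries examined, 4 held a library whose gap to its nearest neighbour passed Dixon's 95% limit, about as many as chance gives at 1 in 20. *klf1* in *mtmr5*-KO replicate 3 was at 4.11 CPM, beside 1.83 to 2.18 in the other 3 libraries. *gata1a* in WT replicate 3 was at 0.105 CPM, which is 3 counts, beside 0 in the others. *stab2* in WT replicate 3 was at 8.06 CPM, beside 9.86 to 9.98. *gc*, the vitamin D binding protein gene, was at 7.00 CPM in *mtmr5*-KO replicate 3, beside 2.51 to 3.28.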

How the results depend on the processing

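Library totals turned the sign of 4 members. *hbae3* went to -0.59, *alas2* to -0.82, *cahz* to -0.53 and *hemgn* to -0.36. *hbbe2*, also negative with TMM, went to -1.38 and was the 1 member called lower. Over all genes 720 were called higher and 10818 lower, against 2618 and 1457 with TMM. Other named genes that turned sign on that scale were *hbbe1.3* (-0.95), the second *hbae1.3* row (-0.064), *ank1a* (-0.18), *bach1b* (-0.013), *tek* (-0.35), *fermt3b* (-0.032), *syt1a* (-0.30), *gap43* (-0.33), *usp9* (-0.45) and *gigyf1b* (-0.012). The summed level went from a log2 ratio of 0.35 to -0.60 as a percent of all counts and to 0.21 outside the 20 most abundant rows. The cause of these shifts was not tested.

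DESeq2 called 3 members higher (*cahz* 0.41, *hemgn* 0.58 and *klf1* 1.12, at adjusted p = 0.0339, 0.0467 and 0.0198), and so did upper quartile scaling (0.47, 0.64 and 1.17, at edgeR adjusted p = 0.0312, 0.0361 and 0.0481, beside 14.3% of all tested genes called higher), where *slc4a1a* was at 4.35e-04. Without *mtmr5*-KO replicates 3 and 4, 1 member was called (*cahz*, 0.53, edgeR adjusted p = 0.0405), with 1576 genes higher and 795 lower in all. limma-voom gave 0.040 for *hbbe1.1* and -0.029 for *alas2*, and limma on normalized counts -0.17 for *alas2*. *hbbe1.3* was at -0.021 without the 20 most abundant rows and -0.033 with no filter.

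Replicate numbers do not mark a pairing in the labels. The correlation of same-numbered deviations was 0.103, 0.168, 0.0906 and 0.145 for replicates 1 to 4, under the 0.1 set for a pairing in replicate 3. However, 8 of 8 libraries correlated best with their own number. WT replicate 3 reached at most 0.0666 with *mtmr5*-KO libraries of other numbers. A pairing across genotypes is therefore not settled. With the replicate block, 2 members were called higher (*cahz* 0.41, edgeR adjusted p = 0.0137; *hemgn* 0.57, edgeR adjusted p = 0.0117), *alas2* was at -0.10, and over all genes 2879 were called higher (14.8%) and 2264 lower.

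With each library left out in turn, 0 to 1 members were called higher and 0 lower, and over all genes 2008 to 2769 were higher and 741 to 1816 lower. Log2 fold changes ran from 0.27 to 0.44 for *hbae3*, -2.22 to -0.30 for *hbbe1.1*, -0.77 to -0.27 for *hbbe2*, -0.27 to 0.28 for *alas2*, 0.29 to 0.48 for *cahz*, 0.41 to 0.74 for *hemgn*, 0.78 to 1.24 for *klf1*, -0.50 to 0.18 for *slc4a1a* and -0.18 to 0.15 for *hbbe1.3*. The summed log2 ratio ran from 0.31 to 0.39, and that of *hbbe2* over *hbae3*, added after seeing the data, from -1.02 to -0.72.

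With *hbbe1.1* left out of the mean, also chosen after seeing the data, the likeness was -0.26 for *usp9*, -0.19 for *whrna*, -0.41 for *gigyf1b*, -0.40 for *ryr1b* and -0.16 for *gc*. Members with under 50 counts a library (*alas2*, *slc4a1a* and most of *klf1*) are limited by depth.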
